A study of Mus musculus with 28 samples.

Results

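The genes described are 10 mediators of suppression and tissue repair by Treg cells, taken by symbol from the deposited expression table: the cytokine genes Il10, Ebi3, Il12a and Tgfb1, the TGF-β activation genes Lrrc32 and Itgb8, the ectoenzyme genes Entpd1 and Nt5e, and Fgl2 and Areg. Of these 10, 9 have a row under their own symbol among the 53801 features of the table, and Areg was not analysed here because its symbol has no row. Treg cells were sorted as TCR+CD4+CD25hi CD127lo cells from the spleens or the forebrain tumors that grew from CT2A cells, a mouse glioma line used as a model of GBM, and their polyadenylated RNA was sequenced in bulk by Smart-Seq2, a method that amplifies full-length cDNA from few cells. Once tumors reached 2 mm3, every mouse received 4 doses, 3 days apart, of 250 μg of either IgG2a, the isotype control, or αPD1 + αGITR, and organs were taken 2 days after the last dose. The αPD1 antibody blocks an inhibitory receptor of T cells, and the αGITR antibody is an agonist of a co-stimulatory receptor that Treg cells carry at a high level. The values come from 7 splenic and 5 GBM libraries after IgG2a and from 8 splenic and 7 GBM libraries after αPD1 + αGITR. The series' design text says that the spleens came from different mice and so did the tumors, so each library of a tissue was taken as 1 animal. Whether a spleen and a tumor with the same label number came from 1 mouse is not stated. Label numbers also repeat within groups, among them spleen_79_a to spleen_79_d after IgG2a and spleen_70_a to spleen_70_c after αPD1 + αGITR. In GBM, tumor_70_a and tumor_70_b share a number, as do tumor_73_a and tumor_73_b. The legend of the paper's RNA-seq figure gives fewer animals per treatment than there are splenic libraries here. If libraries with a shared number came from the same mouse, the n, SD and p-values of their groups count too many animals, which was not tested. The mice of all groups carried a CT2A tumor, so the spleens are not those of tumor-free animals, and the strain and age of these mice were not in the sample labels.

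Treg cells restrain other T cells in several ways at once. They secrete IL-10 and IL-35, a heterodimer of the Ebi3 and Il12a products, and they display latent TGF-β on GARP (Lrrc32), from which the integrin αvβ8 (its β chain is Itgb8) releases the active cytokine. On the cell surface CD39 (Entpd1) removes phosphates from extracellular ATP and ADP to give AMP, and CD73 (Nt5e) turns AMP into adenosine, which acts on adenosine receptors of effector T cells. FGL2, a secreted fibrinogen-like protein, is a ligand of the inhibitory Fc receptor FcγRIIB, and amphiregulin (Areg) is an EGF receptor ligand associated with tissue repair by Treg cells.

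In brief, Fgl2 was higher in GBM than in splenic Treg cells in both treatment groups, though it entered these tests through its GBM mean alone. Ebi3 and Entpd1 passed the adjusted threshold between the tissues after αPD1 + αGITR. No member passed it between the treatments in either tissue, except Ebi3 in GBM when libraries were weighted. With these weights 263 of all 7848 genes passed, against 0 without them. The upstream sequences of these 3 genes are shown because they are the members that passed a test, and Entpd1 is shown at both of its listed starts because a gene-level value cannot tell from which start its transcripts came. Each is the 250 bases before a RefSeq transcription start (GRCm38.p6, the assembly of mm10), all on the plus strand, at chr5:21372423-21372672 for Fgl2, chr19:40612116-40612365 and chr19:40659520-40659769 for Entpd1 and chr17:55952373-55952622 for Ebi3. They are written 5′ to 3′ in lower case, with matches to any of 5 motifs in capitals.
Fgl2: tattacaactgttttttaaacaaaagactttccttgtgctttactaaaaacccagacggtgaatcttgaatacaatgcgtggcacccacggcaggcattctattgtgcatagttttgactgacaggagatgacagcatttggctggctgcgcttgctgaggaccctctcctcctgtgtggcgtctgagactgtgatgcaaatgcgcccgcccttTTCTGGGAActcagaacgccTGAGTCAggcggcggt
Entpd1, first start: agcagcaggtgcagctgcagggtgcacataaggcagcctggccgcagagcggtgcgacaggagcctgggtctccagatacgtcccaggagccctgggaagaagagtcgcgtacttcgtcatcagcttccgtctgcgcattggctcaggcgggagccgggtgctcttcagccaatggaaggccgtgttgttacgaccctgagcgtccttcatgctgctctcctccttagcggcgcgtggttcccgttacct
Entpd1, second start: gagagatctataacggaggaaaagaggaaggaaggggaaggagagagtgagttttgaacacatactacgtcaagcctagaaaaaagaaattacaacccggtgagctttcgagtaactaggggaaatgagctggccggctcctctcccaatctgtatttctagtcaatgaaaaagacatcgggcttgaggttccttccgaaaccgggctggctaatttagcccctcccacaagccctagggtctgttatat
Ebi3: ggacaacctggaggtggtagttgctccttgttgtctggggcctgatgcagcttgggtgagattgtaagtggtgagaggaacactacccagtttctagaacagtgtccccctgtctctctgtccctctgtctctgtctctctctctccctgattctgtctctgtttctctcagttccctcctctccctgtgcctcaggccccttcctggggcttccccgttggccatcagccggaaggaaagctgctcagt

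The motifs searched on both strands were AP-1 (TGANTCA), CRE (TGACGTCA), STAT (TTCNNNGAA), IRF (GAAA, any 2 bases, GAAA) and forkhead (TGTTTAC). The Fgl2 sequence held an AP-1 match, TGAGTCA, 16 bases before the RefSeq start and a STAT match, TTCTGGGAA, 36 bases before it, and these do not overlap. GENCODE M21 starts Fgl2 at chr5:21372642, inside this window. By that start the AP-1 match lies within the gene and the STAT match crosses its first base. These motifs were found in 6.75% (AP-1) and 7.02% (STAT) of 32851 mouse sequences of the same length. None of the 5 motifs was found in the Entpd1 and Ebi3 sequences, nor in those of Tgfb1, Il12a, Itgb8 and Nt5e, which says only that these letters are not in this window.

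Values are TPM, a length-normalized measure with an equal total for every library. Read depth is unknown, and the number of genes above 1 TPM ran from 7702 to 17460 per library. Groups were compared with limma after a log2(TPM + 1) transformation. A gene entered the test when its mean in either group exceeded 10 TPM, and p-values were adjusted by Benjamini-Hochberg over all genes that entered. For each member the libraries were also permuted exactly between the groups, two-sided. Higher values for a gene in these bulk samples can come from more cells that express it or from more RNA per cell, which cannot be told apart. All 8 markers of Treg cells examined, Foxp3 among them, had a median above 10 TPM in each of the 4 groups, and the medians of their summed transcripts were 680 and 624.7 TPM in the spleen and 1376 and 2242 TPM in GBM (IgG2a first). Summed transcripts of 16 macrophage and microglia markers, with none of the 16 at 0 in every library of a group, ran from 19.3 to 292 TPM in the spleen and from 57.2 to 5209 TPM in GBM, and 2 GBM libraries stood apart (5209 TPM in IgG2a library tumor_79_a and 2357 TPM in αPD1 + αGITR library tumor_73_a). The summed transcripts of 2 CD8 T cell markers, 4 NK cell markers and 8 B cell markers reached at most 36.6, 19.0 and 66.9 TPM in any library. Summed transcripts of 8 neuron and glia markers had medians of 7.44 and 15.2 TPM in the spleen and 52.1 and 22.8 TPM in GBM (IgG2a first). Library tumor_79_a had the highest sums of neuron and glia (171.4 TPM), dendritic cell (73.5 TPM) and plasma cell markers (64.7 TPM). Of 3 listed erythroid markers, the 1 matched by symbol reached 284 TPM in the treated spleen against at most 3.26 TPM in GBM. Listed symbols with a hyphen were not matched, because the deposited table writes hyphens as dots, so other erythroid transcripts are not counted here. The part of these cells in the differences was not tested. Medians of the summed transcripts of 14 housekeeping genes were 11363 and 11138 TPM in the spleen and 17597 and 24447 TPM in GBM.

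**Figure D1:**
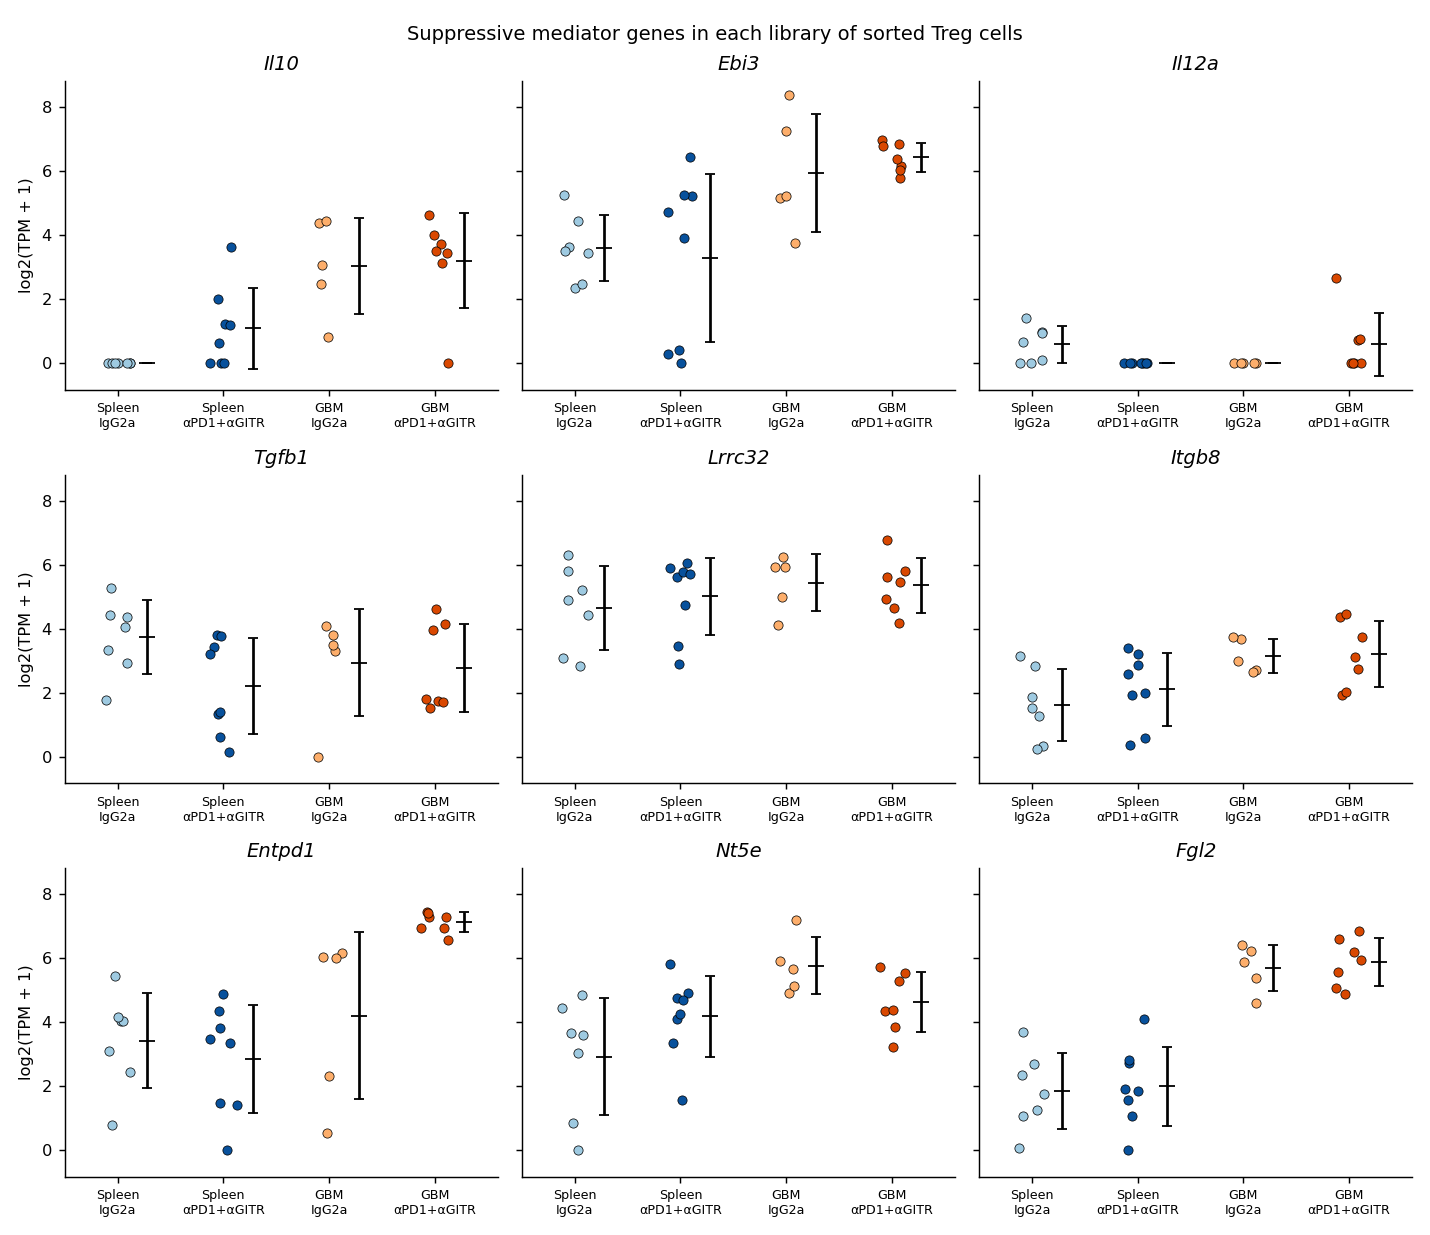
Each point is the level of a gene in 1 library, as log2(TPM + 1), in the 4 groups, and the bar beside the points is the mean ± SD of the group. Fgl2 lies above every splenic library in all 12 GBM libraries, Entpd1 is highest and least spread in the 7 GBM libraries after αPD1 + αGITR, and Il10 is at 0 in all 7 splenic libraries after IgG2a.

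Fgl2 was higher in GBM than in the spleen in both treatment groups. In the 5 GBM libraries after IgG2a it stood at 57.81, 83.83, 40.53, 23.17 and 73.57 TPM, and in the 7 splenic libraries it ran from 0.06 to 11.97 TPM with a median of 2.35 TPM. After αPD1 + αGITR it ran from 28.63 to 115.37 TPM with a median of 60.54 TPM in GBM, and from 0 to 16.09 TPM with a median of 2.66 TPM in the spleen. No GBM library overlapped with a splenic library of the same treatment. The means were 55.8 ± 24.5 TPM (SD, n = 5) and 3.78 ± 4.06 TPM (SD, n = 7) after IgG2a, and 64.7 ± 32.2 TPM (SD, n = 7) and 4.52 ± 5.12 TPM (SD, n = 8) after αPD1 + αGITR. The log2 fold change of GBM over spleen was 3.85 (SE 0.85, 95% interval 2.13 to 5.58) after IgG2a, with an adjusted p of 0.0226 in limma and an exact permutation p of 0.00126, the smallest that 5 libraries against 7 allow. It was 3.88 (SE 0.59, 95% interval 2.67 to 5.09) after αPD1 + αGITR, with an adjusted p of 0.000254 in limma and an exact permutation p of 0.000311.

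Of the 7 members tested after IgG2a, Fgl2 was the 1 that passed the adjusted threshold between tissues, beside 0.569% of all 7380 genes tested in either direction and 0.488% that were higher. In both comparisons of tissues Fgl2 entered the test through its GBM mean alone, where it is high (splenic means of 3.78 and 4.52 TPM). The count is therefore a description. Fgl2 was among the 3 of these 7 whose groups did not overlap, with Il10 and Nt5e, beside 1.48% of all genes. The Fgl2 call after IgG2a held in 14 of the 23 alternatives in which it was tested. It was lost with a pseudocount of 0.1 (adjusted p = 0.102), without a filter on low values (0.0845), after rescaling without the 10 most abundant features (0.0725), with the replicate block (0.138) and without libraries tumor_369_a and tumor_79_a (0.135). It was also lost in 4 of the 12 fits that each left out 1 library, with adjusted p-values of 0.0605 without library spleen_369_a, 0.0939 without tumor_76_a, 0.0605 without tumor_77_a and 0.0552 without tumor_79_a, while the log2 fold change of Fgl2 stayed between 3.56 and 4.16 over all 12. The interaction of tissue and treatment for Fgl2 was 0.02 (95% interval -1.85 to 1.90), which leaves differences of more than 2-fold possible. Between treatments Fgl2 differed by a log2 fold change of 0.18 in GBM (95% interval -0.88 to 1.25, adjusted p = 0.836 in limma). Its level in the spleen was below the filter, and the exact permutation p there was 0.800. Fgl2 lies on chromosome 5 (chr5:21372642-21378374, plus strand, GENCODE M21) within the span of Ccdc146, which is on the other strand. The protocol does not keep strand, and Ccdc146 was listed at 2.41 TPM or less in every library. Macrophages can express Fgl2, and macrophage and microglia transcripts were higher in several GBM libraries. Within the IgG2a libraries of GBM, tumor_78_a had both the fewest of these transcripts (68.9 TPM) and the least Fgl2 (23.17 TPM), and tumor_79_a, with the most (5209 TPM), had 73.57 TPM of Fgl2. Among treated ones tumor_80_a, with the fewest (57.2 TPM), had 46.82 TPM, and tumor_73_a, with the most (2357 TPM), had 32.8 TPM. The part of macrophage transcripts in the Fgl2 difference was not tested.

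Entpd1 had its highest levels in GBM Treg cells after αPD1 + αGITR. The 7 libraries stood at 174.48, 155.73, 122.07, 154.61, 94.72, 169.97 and 123.39 TPM, and the 5 GBM libraries after IgG2a at 3.94, 70.08, 64.65, 62.77 and 0.45 TPM. In the spleen the gene ran from 0.72 to 42.17 TPM with a median of 15.35 TPM after IgG2a, and from 0 to 28.73 TPM with a median of 9.72 TPM after αPD1 + αGITR. All 7 treated GBM libraries were thus above every other library, and the IgG2a libraries of GBM split into 3 close together and 2, tumor_369_a and tumor_79_a, below the splenic median. As means, Entpd1 was at 142 ± 29.3 TPM (SD, n = 7) in treated GBM, 40.4 ± 35.0 TPM (SD, n = 5) in GBM after IgG2a, 14.7 ± 13.6 TPM (SD, n = 7) in the spleen after IgG2a and 10.5 ± 9.88 TPM (SD, n = 8) in the treated spleen.

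After αPD1 + αGITR the log2 fold change of Entpd1 between GBM and spleen was 4.29 (SE 0.63, 95% interval 2.99 to 5.59, adjusted p = 0.000235 in limma), with an exact permutation p of 0.000311. Together with Fgl2 and Ebi3, Entpd1 was among 3 of 7 members that passed the adjusted threshold in this comparison, all of them higher in GBM, beside 17.5% of the 7506 genes tested and 15.8% that were higher. Entpd1 and Fgl2 were the 2 whose groups did not overlap, beside 3.00% of all genes. The number of genes called higher in this comparison depends on the scaling (1189 higher and 121 lower as deposited, 263 and 337 with TMM-type factors), and Entpd1 and Fgl2 passed under each of the alternatives in which they were tested, 26 and 25 in number. After IgG2a the log2 fold change of Entpd1 between GBM and spleen was 0.78 (95% interval -1.26 to 2.82, adjusted p = 0.770 in limma), and it was 2.63 (adjusted p = 0.347) without libraries tumor_369_a and tumor_79_a.

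Between treatments in GBM the log2 fold change of Entpd1 was 2.93 (SE 0.80, 95% interval 1.25 to 4.61), and its adjusted p in limma was 0.0977. No gene passed the adjusted threshold there, so the share called was 0% of 7848, while 1749 genes (22.3%) had an unadjusted p under 0.05. Entpd1 was the 1 of 7 members past that unadjusted threshold (p = 0.00162 in limma) and the 1 whose groups did not overlap, beside 2.19% of all genes tested, and its exact permutation p was 0.00126, the smallest this design allows. The low IgG2a libraries tumor_369_a and tumor_79_a had summed macrophage and microglia transcripts of 309 and 5209 TPM, against 68.9 to 187 TPM in the other 3. They also had the fewest genes above 1 TPM of their group, 7702 in tumor_369_a, the fewest of all 27 libraries, and 11365 in tumor_79_a, against 14624 to 16611 in the other 3. Treated library tumor_73_a, with 2357 TPM of macrophage and microglia transcripts and 11795 genes above 1 TPM, had 154.61 TPM of Entpd1. Treated library tumor_74_a, with 299 TPM of these transcripts and 11581 genes above 1 TPM, had 169.97 TPM of Entpd1. The part of macrophage transcripts and of library quality in the Entpd1 difference was not tested. Without both low libraries the IgG2a mean was 65.8 ± 3.80 TPM (SD, n = 3) and the groups still did not overlap. The log2 fold change was then 1.07 (SE 0.30, adjusted p = 0.111 in limma), and the exact permutation p was 0.00833, the smallest that 3 libraries against 7 allow. The 2 libraries left out are the IgG2a libraries of GBM with the least Entpd1, and they were singled out after the values were seen. The values without them, p-values included, are therefore a description only.

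In the spleen the treatments differed by a log2 fold change of -0.58 in Entpd1 (95% interval -2.27 to 1.10, adjusted p = 0.9997 in limma). The interaction of tissue and treatment for Entpd1 was 3.51 on the log2 scale (SE 1.19, unadjusted p = 0.00562, adjusted p = 0.314 in limma), beside 12.2% of 8687 genes with an unadjusted p under 0.05 and 0% past the adjusted threshold. It was 1.65 (unadjusted p = 0.137) without GBM libraries tumor_369_a and tumor_79_a. Entpd1 is a long gene (chr19:40612366-40741602, plus strand) with the processed pseudogenes Gm16027 and Gm8783 within its span, of which Gm8783 reached 23.04 TPM in the spleen after IgG2a and 12.97 TPM in treated GBM, so reads shared between them could be split.

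**Figure D2:**
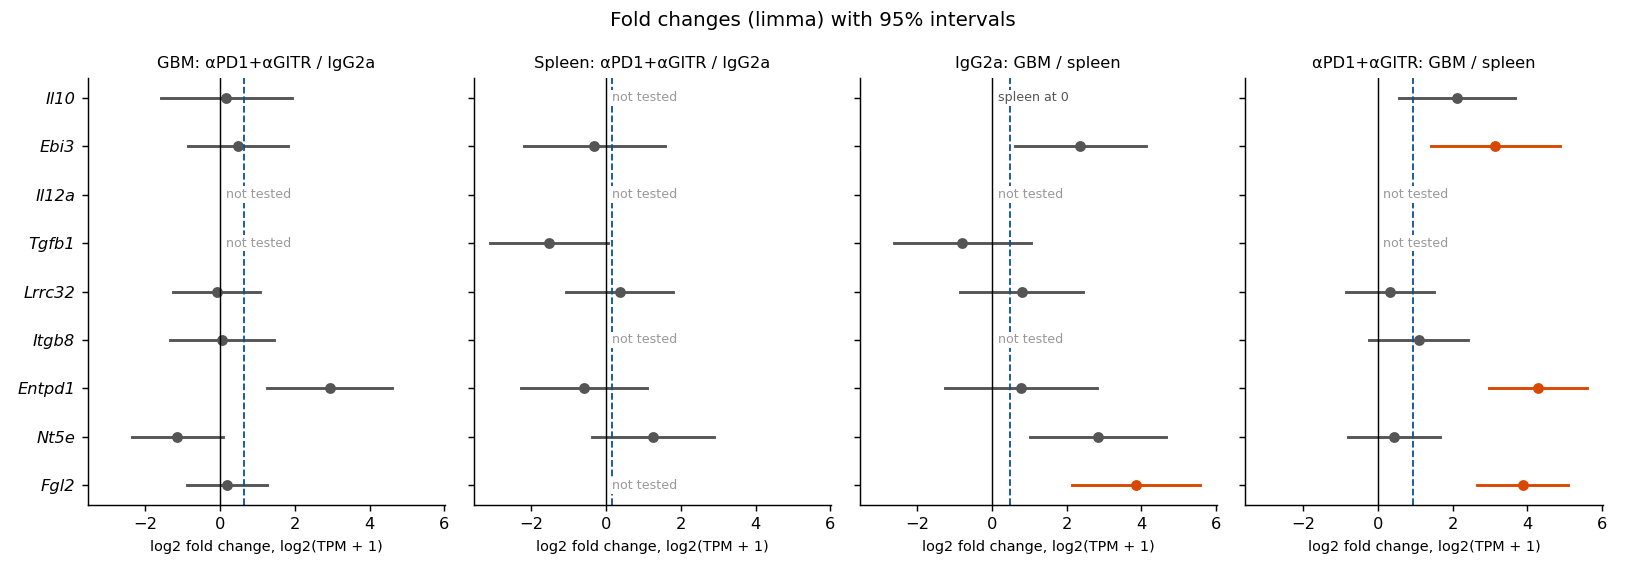
Points are limma log2 fold changes on the log2(TPM + 1) scale with 95% intervals, 1 panel per comparison, in orange where the adjusted p is under 0.05, and the dashed line is the median of all genes tested. Fgl2 passes in both comparisons of tissues, Ebi3 and Entpd1 pass after αPD1 + αGITR, and no member passes between treatments in these fits. A gene below the filter is marked as not tested, and Il10 has no fold after IgG2a because all splenic libraries are at 0.

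Nt5e, the second enzyme of the pair, was ordered differently from Entpd1 over the groups. It stood at 146.27, 49.95, 29.16, 59.41 and 34.09 TPM in the 5 GBM libraries after IgG2a and from 8.28 to 52.25 TPM, with a median of 19.88 TPM, in the 7 after αPD1 + αGITR. The splenic libraries ran from 0 to 28.13 TPM (median 11.04 TPM) after IgG2a and from 2.00 to 55.45 TPM (median 21.62 TPM) after αPD1 + αGITR. Every GBM library after IgG2a was above every splenic library of that treatment, whereas the treated tissues overlapped throughout. Between tissues the log2 fold change of Nt5e was 2.84 after IgG2a (SE 0.89, adjusted p = 0.174 in limma), with an exact permutation p of 0.00505, and it passed with library weights (adjusted p = 0.0222) and with all 4 groups in one fit (0.0459). After αPD1 + αGITR it was 0.44 (95% interval -0.80 to 1.68, adjusted p = 0.567), and -0.39 with quantile normalization and -0.34 with TMM-type factors.

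Between treatments in GBM the log2 fold change of Nt5e was -1.14 (95% interval -2.37 to 0.08, adjusted p = 0.249 in limma and -1.83 with TMM-type factors, adjusted p = 0.249), with an exact permutation p of 0.0619 and 4 of 7 treated libraries below every IgG2a library. In the spleen it was 1.26 (95% interval -0.36 to 2.89, adjusted p = 0.9997). The interaction of tissue and treatment was -2.41 (SE 1.04, unadjusted p = 0.0260, adjusted p = 0.356 in limma), so Nt5e and Entpd1 were the 2 of 8 members past the unadjusted threshold, in opposite directions, and neither passed the adjusted one. The share of all genes past the unadjusted threshold was 12.2%. Without GBM libraries tumor_369_a and tumor_79_a the Nt5e term was -2.14 (95% interval -4.42 to 0.14, unadjusted p = 0.0654), close to its value over all libraries. These comparisons share their groups and are not independent of each other.

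The level of Entpd1 over Nt5e within a library does not depend on the scaling between libraries, apart from the added 1. As log2 of the ratio of TPM + 1 it ran from 1.28 to 4.07 (median 3.03) in the 7 treated GBM libraries, and it was -4.90, 0.48, 1.12, 0.08 and -4.60 in the 5 GBM libraries after IgG2a. In the spleen it ran from -3.34 to -0.03 (median -1.09) after αPD1 + αGITR and from -2.89 to 4.15 (median 0.57) after IgG2a. Entpd1 was therefore above Nt5e in 7 of 7 treated GBM libraries and in 0 of 8 treated splenic libraries, against 3 of 5 and 5 of 7 after IgG2a. The ratio was chosen after the values were seen and was not tested.

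**Figure D3:**
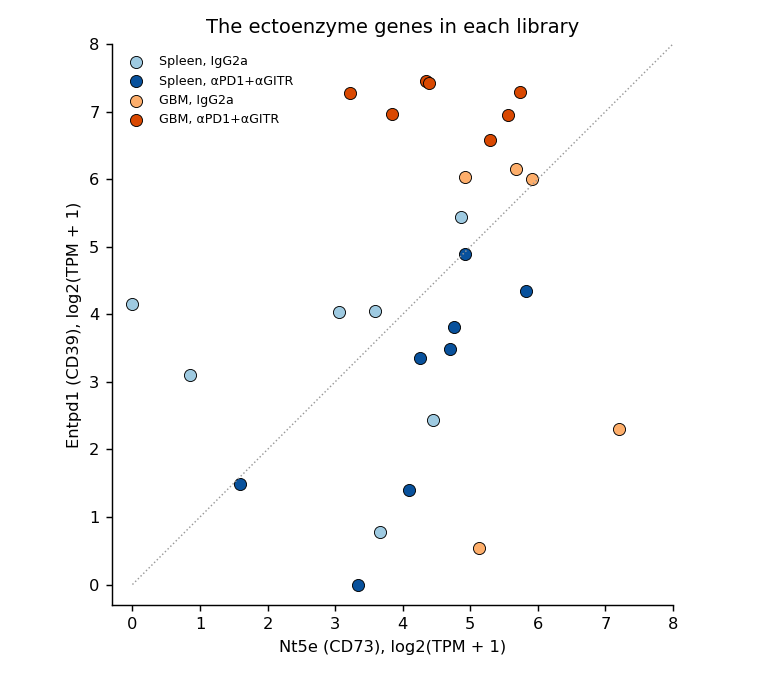
Each point is 1 of the 27 libraries, with Nt5e on the horizontal and Entpd1 on the vertical axis, both as log2(TPM + 1), colored by group, and the dotted line marks equal levels. All 7 treated GBM libraries lie above the line and all 8 treated splenic libraries on or below it, and the GBM libraries after IgG2a fall into 3 near the line and 2 far below it.

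Among the cytokine genes, Il10 was detected mainly in GBM libraries, at low levels. It was listed at 0 in all 7 splenic libraries after IgG2a and stood at 0.78, 19.84, 21.00, 4.57 and 7.41 TPM in the 5 GBM libraries. After αPD1 + αGITR it ran from 0 to 23.98 TPM (median 10.41 TPM) in GBM, and in the 8 splenic libraries it was at 0, 1.36, 0, 1.30, 0, 0.56, 11.55 and 3.00 TPM. GBM and spleen did not overlap after IgG2a (exact permutation p = 0.00126, adjusted p = 0.183 in limma, 0.00173 with library weights and 0.0253 with all 4 groups in one fit), and no fold is given against a group at 0. After αPD1 + αGITR the log2 fold change of Il10 between tissues was 2.12 (SE 0.75, 95% interval 0.57 to 3.67), with an adjusted p of 0.0520 in limma and an exact permutation p of 0.0154. The treated GBM library at 0 was tumor_73_a, the 1 with the most macrophage transcripts of its group, and without it the log2 fold change was 2.65 with an adjusted p of 0.0217. Il10 also passed without spleen_73_a (adjusted p = 0.0488), spleen_74_a (0.0225) or spleen_80_a (0.0434), and with library weights (0.0168) or all 4 groups in one fit (0.0469), which makes 6 of the 24 alternatives in which it was tested.

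Between treatments in GBM the log2 fold change of Il10 was 0.17 (95% interval -1.58 to 1.91, adjusted p = 0.910 in limma), and its sign changed with the scaling (-0.77 with quantile normalization). In the spleen Il10 was above 0 in 5 of 8 libraries after αPD1 + αGITR and in 0 of 7 after IgG2a. Its exact permutation p there was 0.0256 over 9 members examined in this comparison, and Il10 was below the filter of limma. Of the 5 splenic libraries above 0, 1 was above 10 TPM.

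Ebi3, the subunit shared by IL-27 and IL-35, was among the more abundant members. It stood at 332.64, 34.63, 12.58, 36.69 and 152.74 TPM in the 5 GBM libraries after IgG2a and ran from 54.13 to 124.93 TPM (median 82.94 TPM) in the 7 after αPD1 + αGITR. In the spleen it ran from 4.13 to 37.47 TPM (median 10.51 TPM) after IgG2a and from 0 to 85.86 TPM (median 19.81 TPM) after αPD1 + αGITR. The treated GBM libraries were close together, whereas 3 treated splenic libraries were below 1 TPM and the other 5 between 13.94 and 85.86 TPM. After αPD1 + αGITR the log2 fold change of GBM over spleen was 3.15 (SE 0.84, 95% interval 1.41 to 4.89, adjusted p = 0.0176 in limma) for Ebi3, with an exact permutation p of 0.00404. This call was lost with TMM-type factors (log2 fold change 2.51, adjusted p = 0.0768), without a filter on low values (adjusted p = 0.136) and after rescaling without the 10 most abundant features (adjusted p = 0.0571), and it held in 15 of 15 fits without 1 library.

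After IgG2a the log2 fold change of Ebi3 between tissues was 2.36 (SE 0.86, adjusted p = 0.302 in limma), with an exact permutation p of 0.0139. The GBM libraries with most Ebi3, tumor_369_a and tumor_79_a, are those with little Entpd1 and the most macrophage transcripts and fewest detected genes of their group, and macrophages can express Ebi3. Without both, the log2 fold change between tissues was 1.12 (adjusted p = 0.801). Between treatments in GBM, Ebi3 had a log2 fold change of 0.47 (95% interval -0.86 to 1.80, adjusted p = 0.650) over all libraries. It was 1.55 with library weights (adjusted p = 0.0456), -0.22 with TMM-type factors and 1.71 without both libraries. With library weights 263 of all 7848 genes passed, against 0 without them. As tumor_369_a and tumor_79_a are the 2 control libraries with the most Ebi3, the value of 1.71 is a description and is given no test. The part of macrophage transcripts and of library quality in these values was not tested. In the spleen the treatments differed by -0.31 in Ebi3 (95% interval -2.21 to 1.58, adjusted p = 0.9997). Ebi3 (chr17:55952640-55957022, plus strand) overlaps the antisense gene Gm16712, which was listed at 8.92 TPM or less in every library.

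Il12a, the other chain of IL-35, was nearly undetected. It was above 1 TPM in 2 of 27 libraries, at 1.69 TPM in a splenic library after IgG2a and 5.40 TPM in a treated GBM library, and at 0 in 19. Il12a was listed at 0 in all 5 GBM libraries after IgG2a and in all 8 splenic libraries after αPD1 + αGITR. It did not pass the filter in any comparison. Its exact permutation p was 0.00699 between treatments in the spleen, where 5 of 7 IgG2a libraries had a value above 0 and none exceeded 1.69 TPM, and 0.0455 between tissues after IgG2a.

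**Figure D4:**
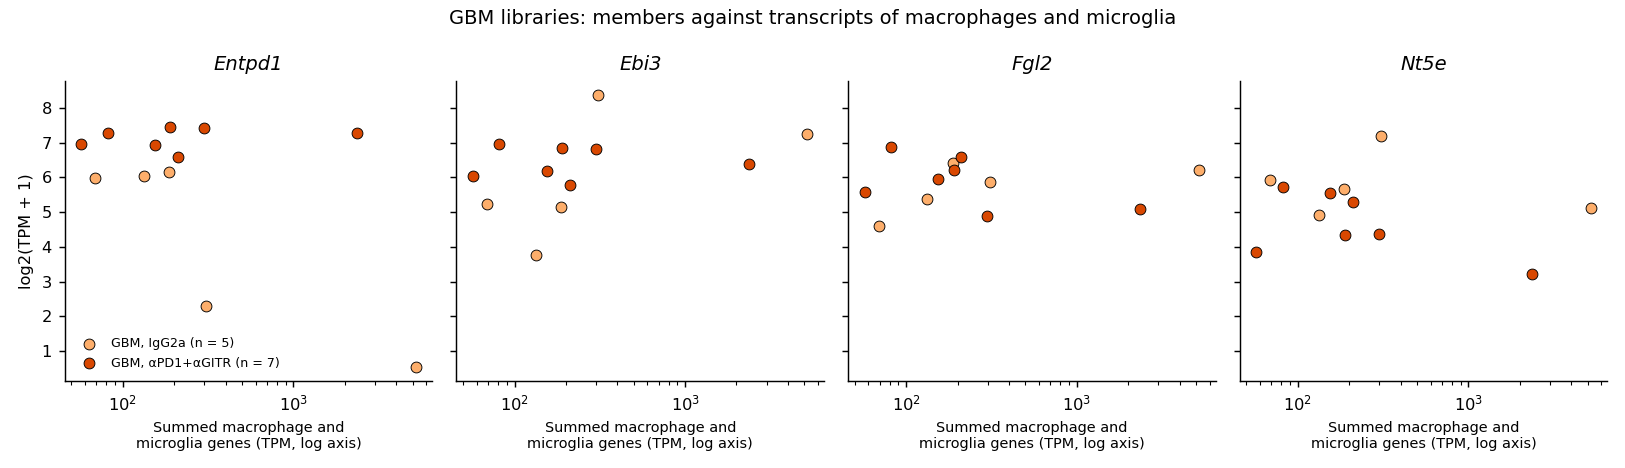
Each point is 1 of the 12 GBM libraries, with the summed TPM of 16 macrophage and microglia genes on the horizontal log axis and the level of a gene, as log2(TPM + 1), on the vertical axis. The IgG2a libraries at 309 and 5209 TPM on the horizontal axis have the lowest Entpd1 and the highest Ebi3, while the treated library at 2357 TPM lies among the other treated libraries for Entpd1 and Ebi3.

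Of the TGF-β genes, Tgfb1 had its highest median in the spleen after IgG2a. It ran from 2.44 to 37.62 TPM (median 15.70 TPM) in the spleen after IgG2a and from 0.10 to 13.12 TPM (median 4.93 TPM) after αPD1 + αGITR. In GBM it was at 0, 13.08, 15.81, 8.97 and 10.37 TPM after IgG2a, and after αPD1 + αGITR 4 of 7 libraries were between 1.88 and 2.46 TPM and the other 3 between 14.72 and 23.41 TPM. All groups overlapped. Between treatments in the spleen the log2 fold change of Tgfb1 was -1.52 (SE 0.77, 95% interval -3.11 to 0.06, adjusted p = 0.9997 in limma) and the exact permutation p was 0.0499, and no gene passed the adjusted threshold there (0% of 6634, with 168 genes or 2.53%, and 0 of the 5 members tested, at an unadjusted p under 0.05). Between tissues after IgG2a it was -0.80 (95% interval -2.62 to 1.03, adjusted p = 0.743), and -0.061 without tumor_369_a, the library at 0. Tgfb1 entered both tests through its mean in the spleen after IgG2a alone (15.95 TPM), the group where it is highest. Tgfb1 was below the filter in the other comparisons, with an exact permutation p of 0.878 between treatments in GBM and 0.453 between tissues after αPD1 + αGITR.

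Lrrc32, which encodes the docking receptor GARP of activated Treg cells, was the member detected most evenly. It was above 1 TPM in all 27 libraries, from 6.09 to 109.32 TPM with a median of 43.27 TPM. Its group medians were 28.76 and 49.68 TPM in the spleen and 59.73 and 43.27 TPM in GBM (IgG2a first), and all groups overlapped. The log2 fold changes of Lrrc32 were -0.09 (95% interval -1.26 to 1.08) between treatments in GBM, 0.37 (-1.06 to 1.79) in the spleen, 0.79 (-0.85 to 2.44) between tissues after IgG2a and 0.33 (-0.84 to 1.51) after αPD1 + αGITR, the last of which was -0.49 with TMM-type factors. The smallest of its exact permutation p-values was 0.274. These intervals leave changes of more than 2-fold possible in each comparison.

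Itgb8, the chain that pairs with integrin αv (Itgav) to release active TGF-β, was low in all groups. It ran from 0.19 to 7.95 TPM in the spleen after IgG2a, from 0.28 to 9.48 TPM in the spleen after αPD1 + αGITR and from 2.82 to 21.04 TPM in treated GBM, and it was at 5.51, 11.85, 6.90, 5.27 and 12.38 TPM in GBM after IgG2a. GBM values were mostly above splenic ones, with overlap. The exact permutation p of Itgb8 between tissues was 0.0265 after IgG2a, where the gene was below the filter of limma, and 0.0786 after αPD1 + αGITR, where the log2 fold change was 1.09 (95% interval -0.24 to 2.42, adjusted p = 0.197). Between treatments the exact permutation p of Itgb8 was 0.888 in GBM and 0.389 in the spleen.

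Read side by side over all tested members, the median log2 fold changes were 0.17 between treatments in GBM and -0.31 in the spleen, 2.36 between tissues after IgG2a and 2.12 after αPD1 + αGITR, over 7, 5, 7 and 7 members. The medians of all genes tested were 0.62, 0.15, 0.48 and 0.95. The last values depend on the scaling, since with TMM-type factors the medians of all genes became 0.05, -0.01, 0.20 and 0.22 and those of the members -0.51, -0.51, 2.08 and 1.67. These medians are a description only. Fgl2 and Il10 in both comparisons of tissues, and Itgb8 after αPD1 + αGITR, entered the test through their GBM mean alone, which favors higher values in GBM, and Il12a was left out throughout. In the interaction the median was -0.22 over 8 members against 0.45 over all genes, and 0 members passed the adjusted threshold.

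Related genes were followed in 5 lists. In GBM, between treatments, 0 of the listed genes passed the adjusted threshold. At an unadjusted p under 0.05 in limma, 4 of 13 tested genes of adenosine metabolism and signalling were higher after αPD1 + αGITR and 0 lower, and these were Panx1, an ATP release channel (log2 fold change 2.75), Dpp4, a surface dipeptidase (2.04), Adora2a, an adenosine receptor (1.82), and Pde4d, a cyclic AMP phosphodiesterase (1.53). Their adjusted p-values were between 0.105 and 0.203. Of 18 TGF-β pathway genes, 3 were higher and 1 was lower at the unadjusted threshold. The higher ones were the proprotein convertase Pcsk7 (2.45), the inhibitor Smad7 (2.41) and Nrros (1.45), a GARP-like carrier of latent TGF-β typical of microglia and macrophages, and the lower one was Ltbp1, a latent TGF-β binding protein (-2.01). Of 19 genes of the IL-10 and IL-35 axis 5 were higher, with Gata3 (1.35), Il12rb1 (1.72), Jak1 (1.07) and Stat3 (adjusted p = 0.209) leading, and of 6 tissue repair genes 1 was, Klrg1 (1.83). The background was 17.4% of all genes higher and 4.91% lower. Dpp4, Pcsk7 and Smad7 entered the test through the treated mean alone and Ltbp1 through the IgG2a mean alone, each the group where it is high, so the counts are a description. None of 13 other suppressive molecules was past that threshold.

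In the spleen 1 of 13 tested TGF-β pathway genes, 1 of 10 other suppressive molecules and 0 of the 14, 13 and 3 tested genes of the IL-10, adenosine and repair lists had an unadjusted p under 0.05 between treatments, beside 2.53% of all genes, and 0 passed the adjusted threshold. Lag3, an inhibitory receptor for MHC class II, had a log2 fold change of 3.89 (unadjusted p = 9.77e-05, adjusted p = 0.449 in limma), and the integrin chain Itgb1 one of 1.98. Lag3 entered the test through its treated mean alone (64.1 TPM, against 8.81 TPM after IgG2a).

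Between tissues the list of other suppressive molecules held the most calls. After IgG2a 5 of 13 of these genes rose in GBM at the adjusted threshold, beside 0.488% of all genes, and 1, Cd83, was lower at an unadjusted p under 0.05 (log2 fold change -1.84, adjusted p = 0.481). Those that rose were Gzmb, the cytotoxic protease granzyme B (log2 fold change 7.52, adjusted p = 4.73e-07 in limma), Tigit (4.94) and Lag3 (4.98), inhibitory receptors, Icos (4.39), a co-stimulatory receptor, and Lgals1 (4.10), galectin-1. Cd83 and Lgals1 were named after their values were seen. No gene of the other 4 lists passed there. At an unadjusted p under 0.05, which 7.63% of all genes passed with a higher value in GBM, the leading genes were Bhlhe40 (3.31), Maf (2.84), Il12rb2 (3.08) and Il10ra (2.34) in the IL-10 and IL-35 axis, Itgav (2.57) and Furin (1.76) in the TGF-β pathway, Prkar1a (1.69) in the adenosine pathway, and Il1rl1 (3.07), Klrg1 (2.84) and Il18r1 (2.28) among tissue repair genes. Gzmb, Lag3, Bhlhe40, Maf, Il12rb2, Furin, Il1rl1, Klrg1 and Il18r1 had a splenic mean under 10 TPM there and entered the test through their GBM mean, where they are high, so these counts are no support for a direction of the lists.

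After αPD1 + αGITR 9 of 13 of the other suppressive molecules rose in GBM at the adjusted threshold, led by Gzmb (6.67, adjusted p = 1.84e-07 in limma), Icos (4.27), Havcr2 (3.16) and Lgals1 (3.80). In the IL-10 and IL-35 axis 8 of 19 rose, led by the transcription factors Nfil3 (4.54) and Maf (2.61) and the receptor chains Il12rb1 (2.74) and Il12rb2 (2.93). In the TGF-β pathway 6 of 16 rose, led by Itgav, the partner of Itgb8 (4.00), Furin, which cleaves the TGF-β precursor (2.41), Hsp90b1, a chaperone GARP needs for its folding (2.61), and Skil (1.95). Of 6 tissue repair genes 3 rose, the IL-33 receptor Il1rl1 (3.52), Klrg1 (3.67) and the IL-18 receptor chain Il18r1 (2.64), and Penk (2.26) did not pass (adjusted p = 0.0812). The adenosine list had the fewest, 2 of 14, Pde4d (2.53) and Prkar1a (1.55), with adjusted p-values of 0.0615 for Panx1 (2.15) and 0.0700 for the ATP receptor P2rx7 (-1.38). No listed gene fell at the adjusted threshold in this comparison, and 15.8% of all genes were called higher. Of the genes named, Nfil3, Maf, Il12rb2, Furin, Skil, Pde4d, Il1rl1, Klrg1, Il18r1, Gzmb and Havcr2 had a splenic mean under 10 TPM and entered the test through GBM alone, so the counts of genes that rose are a description.

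In the interaction of tissue and treatment 0 listed genes passed the adjusted threshold. Those with an unadjusted p under 0.05 were Nfil3 (2.41) and Bhlhe40 (-2.23), Smad7 (3.14), Ltbp1 (-2.61) and Pcsk7 (2.35), Panx1 (3.74) and Lag3 (-3.17), with adjusted p-values between 0.314 and 0.382, beside 6.80% of all genes above and 5.35% below 0.

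Genes whose levels followed a member most closely were taken by Pearson correlation of log2(TPM + 1) over the 27 libraries, among 8687 genes. They are a description, because the libraries share their tissue and treatment. Fgl2 was followed by Gzmb (r = 0.90) and Plac8 (0.88), Il10 by the inhibitory receptor Pvrig (0.91) and the granule protein Nkg7 (0.84), Entpd1 by Fbxo22 (0.88) and Rln3 (0.87), and Ebi3 by Emd (0.87) and Dtx3l (0.87). Nt5e was closest to Api5 (0.84) and Vps54 (0.83), Itgb8 to the ubiquitin ligases Cblb (0.77) and Rnf125 (0.75), Lrrc32 to Ppp2r1b (0.75) and Ube2e1 (0.75), and Tgfb1 to Tmem129 (0.66) and Slc25a32 (0.64). Among the members themselves, the correlation was 0.73 for Fgl2 and Il10, 0.66 for Fgl2 and Itgb8, 0.25 for Entpd1 and Nt5e and -0.26 for Tgfb1 and Nt5e.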

How the data were processed

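RNA of sorted Treg cells was sequenced by the authors after Smart-Seq2 amplification. By the study's methods, Tophat placed the reads on mm10 and RSEM gave the TPM, and the submitters' processing notes name TopHat2 and bcl2fastq. Versions and the annotation are not given in the sources used here. The table the authors deposited holds TPM plus 1, and 1 was taken off, after which each column sums to 1000000. Read depth is unknown, so precision rests on the spread between libraries. Of 28 libraries 27 were used, and 1 column of values without a name was not used. All 351 pairs of libraries differed (Spearman correlation 0.486 to 0.736).

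The log2(TPM + 1) values, computed from the deposited table with a pseudocount of 1, were fitted in R 4.3.3 by limma 3.58.1, whose eBayes step used a trend, with the 2 groups compared in each fit and all 4 in the interaction. A gene was tested when its mean in any group of the fit was above 10 TPM, with Benjamini-Hochberg adjustment over all of them and a threshold of 0.05. Exact permutation tests were two-sided. The script was tested on simulated data. Alternatives were pseudocounts of 0.1 and 10, other filters, quantile normalization, TMM-type factors (30% and 5% trimmed), rescaling without the 10 most abundant features, genes above 1 TPM as a covariate, library weights, all 4 groups in one fit, a replicate block on the label number, and leaving out each library. Fits without GBM libraries tumor_369_a, tumor_79_a and tumor_73_a were alternatives chosen after seeing the data. None of 14 housekeeping genes was at 0 in any library.

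Members and lists were chosen with earlier results of these data known. Named genes are all members, up to 4 genes per list and comparison with the smallest unadjusted p under 0.05, and the 2 genes most correlated with each member. The lists held 24, 29, 31, 27 and 14 genes (IL-10 and IL-35 axis, TGF-β pathway, adenosine pathway, tissue repair and EGF family, other suppressive molecules). Positions are from GENCODE M21 (GRCm38) and upstream sequences from RefSeq (GRCm38.p6), with entries for 7 of the 9 members with a row. Areg has no row under its symbol. RefSeq lists Mcub as a synonym of Areg and as the symbol of another gene, and 2 rows are named Mcub, so neither was assigned. Labels carry numbers shared between libraries whose meaning is not stated, and they name no sequencing batch.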

Additional observations from a re-analysis of the deposited data

Results flagged for a closer look

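Of 33 groups of libraries examined, 3 held a library that stood apart from the rest of its group on the log2 scale, where chance gives about 1 in 20 groups. GBM library tumor_73_a after αPD1 + αGITR had 0 TPM of Il10, where the next lowest library had 7.75 TPM. GBM library tumor_70_b after αPD1 + αGITR had 5.40 TPM of Il12a, where the next highest had 0.70 TPM. GBM library tumor_369_a after IgG2a had 0 TPM of Tgfb1, where the next lowest had 8.97 TPM.

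The effects of treatment in GBM and in the spleen differed by 3.51 on the log2 scale for Entpd1 and by -2.41 for Nt5e, both with an unadjusted p under 0.05 in limma's interaction term, and neither passed the adjusted threshold (0.314 and 0.356). Over the fits without 1 library the Entpd1 term ran from 2.59 to 4.00 and the Nt5e term from -2.78 to -1.92.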

How the results depend on the processing

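Between tissues after αPD1 + αGITR, Entpd1 and Fgl2 passed the adjusted threshold in every alternative in which they were tested, Ebi3 in 23 of 26. Between treatments in the spleen and in the interaction 0 members passed under every alternative run. In GBM 1 member, Ebi3, passed with library weights (log2 fold change 1.55, adjusted p = 0.0456). With these weights 263 of all 7848 genes passed, against 0 without them. Between tissues after IgG2a the 1 member that passed became 0 with a pseudocount of 0.1, no filter, a mean above 10 TPM in every group (where Fgl2 was not tested), rescaling without the 10 most abundant features, and without GBM libraries tumor_369_a and tumor_79_a, and 3 (Fgl2, Il10 and Nt5e) with library weights and with all 4 groups in one fit. Of all 7380 genes, 262 passed with library weights and 140 with all 4 groups in one fit, against 42 with neither. Without 1 library the number of members that passed was 0 to 1. GBM and splenic libraries with the same label number showed no shared deviation (correlations between -0.16 and 0.18). Libraries that share a number within a tissue were not compared with each other, and what the numbers mark is not stated. With a replicate block 0 members passed after IgG2a, Fgl2 was at 4.22 (adjusted p = 0.138) and Entpd1 at -0.35. The cause of these changes was not tested.

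No value that changed sign passed a threshold. In GBM, log2 fold changes with the opposite sign were, for Il10, -0.088 (pseudocount of 0.1), -0.77 (quantile), -0.29 (TMM-type), -0.21 (library weights), -0.56 (without tumor_369_a and tumor_79_a) and -0.027 (also without tumor_73_a), and -0.39 to 0.70 without 1 library. They were -0.22 (TMM-type) and -0.077 to 1.08 without 1 library for Ebi3, -0.42 to 0.11 for Lrrc32 without 1 library, -0.55 (quantile), -0.57 (TMM-type), -0.10 (rescaled) and -0.076 to 0.26 without 1 library for Itgb8, and -0.026 (quantile), -0.51 (TMM-type) and -0.091 to 0.36 without 1 library for Fgl2. In the spleen Ebi3 was at 0.21 (pseudocount of 10), 0.30 (library weights) and -0.76 to 0.16 without 1 library. Between tissues after αPD1 + αGITR, Lrrc32 was at -0.40 (quantile), -0.49 (TMM-type) and -0.030 (rescaled), and Nt5e at -0.39 and -0.34. The interaction of Fgl2 was -0.38 (TMM-type), -0.0063 (rescaled), -0.10 (genes detected), -0.079 (library weights) and -0.28 to 0.32 without 1 library. Of the remaining single-gene values, 11 newly passed and 12 no longer passed under an alternative, and 851 kept their direction and side of the threshold.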

Other observations

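The table holds 2 rows named Mcub, the second as Mcub.1, and 1 of them may be Areg, for which RefSeq lists this name as a synonym. Which row is which was not determined, so the values are given by row. The row Mcub ran from 0 to 30.36 TPM in the spleen after IgG2a (at 0 in 3 of 7 libraries), from 0 to 8.05 TPM in the treated spleen, from 0.13 to 43.72 TPM in GBM after IgG2a and from 8.98 to 40.68 TPM in treated GBM. The row Mcub.1 was at 0 in 6 of 7 splenic libraries after IgG2a and at 0.79 TPM in the other, and ran from 0 to 15.10 TPM in the treated spleen, from 0 to 23.87 TPM in GBM after IgG2a and from 5.52 to 108.02 TPM in treated GBM. Both rows were higher in GBM than in spleen after αPD1 + αGITR, with log2 fold changes of 3.41 (adjusted p = 0.00244 in limma) for Mcub and 3.40 (adjusted p = 0.00468) for Mcub.1. In that comparison 15.8% of all genes were called higher, and both rows entered the test through GBM alone (splenic means of 1.95 and 2.81 TPM). Between treatments in GBM their adjusted p-values were 0.535 and 0.190.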
